A study of Homo sapiens with 9 samples.

Results

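Control replicates 1 and 2, 2 of the 9 HaCaT libraries of this series, were described across genes beside the other 7. The split was seen in the counts of these same libraries and does not follow their labels, which place 3 libraries in each of BD, NBD and control. The other 7 are control replicate 3, BD replicates 1 to 3 and NBD replicates 1 to 3. HaCaT is an established line of immortalized human keratinocytes. All 9 libraries carry the same labels for cell line, cell type, medium (high-glucose DMEM with fetal bovine serum, low calcium and antibiotics) and library kit. BD and NBD are labelled as subpopulations, sorted by fluorescence per the series' design text, and control as the cell line. The labels do not spell out BD or NBD, and give no treatment, passage, clone or date that would set control 1 and 2 apart from control 3. Whether replicates are separate cultures is not stated, so the spread between them may be technical. The pair was selected on its gene counts, in which many genes differed from the other 7 libraries, so differences along the split are described and not tested.

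Keratinocytes line the skin as a barrier, and their defence programme combines Toll-like receptors that sense microbes, NF-kB and AP-1 transcription factors, chemokines that draw leukocytes, and secreted antimicrobial proteins. Interferons add antiviral enzymes and the molecules that present antigen on MHC class I and II. When oxygen is short, the hypoxia-inducible factors switch cells towards glycolysis and raise genes such as carbonic anhydrases and BNIP3. Several of these programmes set control 1 and 2 apart from the other libraries.

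Levels below are normalised CPM, a gene's count relative to the library total after TMM scaling, which corrects for libraries that differ in composition. A gene was called separated when the lower of its levels in control 1 and 2 was at least 2-fold its highest level among the other 7, or the reverse, with levels under 3 counts set to 3 counts. The log2 difference of a gene is its mean log2 level in control 1 and 2 minus its mean over the other 7. Of 14456 genes with at least 1 CPM in 2 or more libraries, 258 were higher in control 1 and 2 (1.78% of genes tested) and 829 were lower (5.73%), 1087 in all (7.52%). Without NBD replicate 2 the counts were 467 higher and 915 lower. The gap between the sets was over 4-fold for 51 higher and 322 lower genes, and over 10-fold for 14 and 110. Just inside the limit were SIRPA at 2.0042-fold for higher genes and MPPE1 at 2.0077-fold for lower genes, and just outside it EIF4H at 1.9830-fold and CITED2 at 1.9957-fold. Counts of separated members in the gene lists below are to be set beside the 1.78% and 5.73% of all tested genes. The median log2 difference over all tested genes was -0.013. Lower genes outnumbered higher ones and had wider gaps, while the bulk of genes lay near 0, as the plot of log2 difference against level shows.

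**Figure D1:**
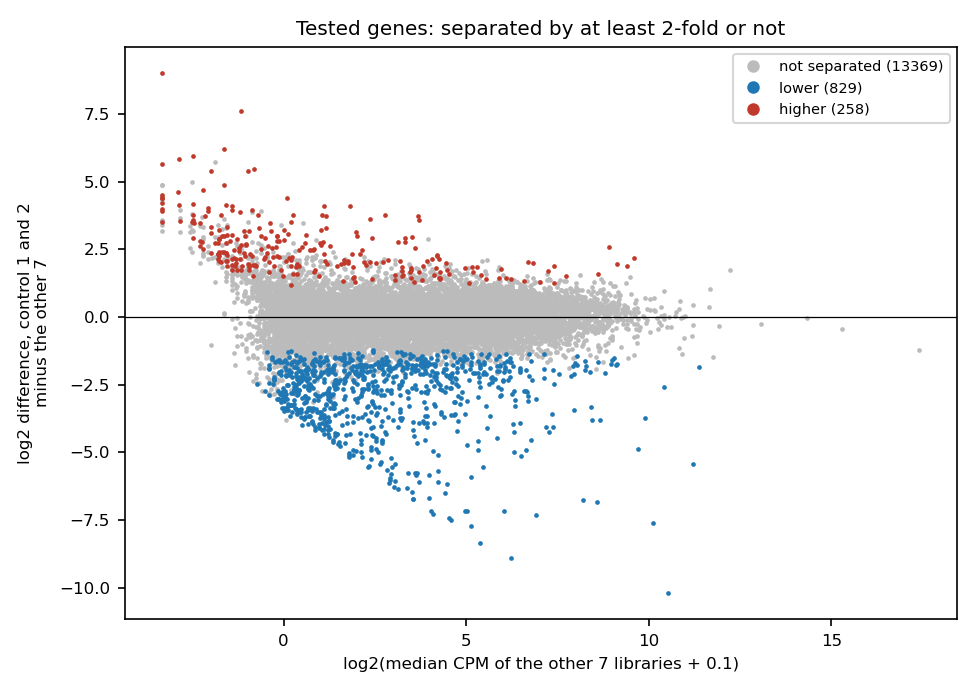
Each point is 1 of 14456 genes, with its median level in the other 7 libraries (log2 of CPM plus 0.1) on the x axis and its log2 difference, control 1 and 2 minus the other 7, on the y axis. The 258 higher genes are red, the 829 lower genes blue and the rest grey, and the lower genes reach further from 0 at middle and high levels than the higher genes do.

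Of the separated genes, 180 higher and 701 lower were protein-coding, out of 11972 protein-coding genes tested. In 207 lower genes, 154 of them protein-coding, both controls held at most 3 counts. The reverse, at most 3 counts in each of the other 7, was seen in 6 higher genes, 4 of them protein-coding. The filter itself shapes these numbers. It was passed through control 1 and 2 alone by 330 genes, of which 96 were called higher, and through the other 7 alone by 1208 genes, of which 460 were called lower.

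Depth and RNA make-up moved with the split. Control 1 and 2 held 18054999 and 17128797 counts, against 25754757 to 29512856 in the other 7, so 3 counts were worth 0.153 and 0.167 CPM in them and 0.103 to 0.125 CPM elsewhere. Mitochondrial rRNA took 12.3% and 11.9% of their counts, against 17.3% to 28.9%, and small nucleolar RNA took 1.07% and 1.19%, against 0.126% to 0.745%. Protein-coding genes took 82.3% and 82.0%, against 65.5% to 77.5%. In each of these measures control 1 and 2 lay outside the range of the other 7, and the part of depth or RNA make-up in the gene differences was not tested.

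Control 1 and 2 were close to each other. Between them 2.55% of genes differed over 2-fold, against 16.3% to 27.4% in the 14 pairs of one of them with one of the other 7, and 2.75% to 19.5% in the 21 pairs among the other 7. With control 3, which carries the same label, the share was 23.2% and 24.6%. The counts of control 1 and 2 still differed by more than sampling noise, with a chi-square per gene of 15.5, so they were kept as 2 libraries.

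The keratinocyte label was met in all libraries. The 12 keratinocyte line markers, among them the basal keratins KRT5 and KRT14, the epidermal master factor TP63 and the desmosomal genes DSP and DSG3, were all tested and 0 were separated. The share over all tested genes was 7.52%, so the 0 is not read as a result about these markers. Their summed level was 4510 and 4900 CPM in control 1 and 2 and 3380 to 4810 CPM in the other 7. The sums of the markers of other cell types were small. The 7 melanocyte markers summed to 3.94 and 4.79 CPM against 2.84 to 5.64, with MLANA, TYR, TYRP1 and SOX10 at 0 counts in both controls. For the 11 leukocyte markers the sums were 1.48 and 1.39 CPM against 4.86 to 7.82, with CD3E, CD3D, MS4A1, CD68, NKG7 and CD207 at 0 counts in both controls and PTPRC at no more than 4 counts in any library. The 9 fibroblast markers summed to 14.6 and 15.3 CPM against 4.48 to 12.1, with FBLN1, a matrix fibulin, at 13.9 and 14.0 CPM against 1.52 to 7.84, while DCN and THY1 were at 0 counts in both controls. Of the 3 fibroblast markers tested FBLN1 alone was higher on average in control 1 and 2, and 2 were lower on average, with a median log2 difference of -1.54. The 7 endothelial markers summed to 2.61 and 1.84 CPM against 6.77 to 18.9, of which CDH5, a cadherin of vessel walls, made up 1.07 and 0.779 CPM against 5.94 to 18.7, while PECAM1, KDR, CLDN5, TEK and EMCN were at 0 counts in both controls. The leukocyte sums likewise differed through CD14, a co-receptor for bacterial lipopolysaccharide, at 1.02 and 0.612 CPM against 3.76 to 6.83. In bulk RNA, fewer cells that express a gene and less RNA per cell cannot be told apart.

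The antimicrobial and acute-phase genes held the widest gap of all. LCN2, a lipocalin that withholds iron from bacteria (chromosome 9, 128149071 to 128153455 in GRCh38), stood at 1.02 and 1.22 CPM in control 1 and 2. It stood at 1800 CPM in control 3, at 809, 1460 and 2080 CPM in BD and at 910, 1340 and 2420 CPM in NBD. The lowest of the 7 was 661-fold above the higher of the pair. Complement C3 was at 24.7 and 29.1 CPM against 466 to 1090 CPM, and CFB, the protease of the alternative complement pathway, at 0.0511 and 0.278 CPM against 8.55 to 21.8 CPM. The acute-phase apolipoprotein SAA2 was at 3.02 and 2.06 CPM against 64.3 to 107 CPM, and shares much of its sequence with SAA1, at 3.12 and 5.96 CPM against 59.7 to 147 CPM. PIGR, the receptor that carries IgA across epithelia, had 0 and 3 counts in control 1 and 2, against 7.59 to 39.2 CPM in the other 7. The ratio of summed rates was 273, with a 95% counting interval of 93.2 to 1320. Here and below such intervals cover counting error only, not the spread between libraries, in genes picked by the same gap. Of 11 members tested 9 were lower and 0 higher, and the list's median log2 difference was -4.53 (-4.84 with levels under 3 counts set to 3).

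Of the Toll-like receptors, which open the response to microbes, 4 were lower. TLR2, a receptor for bacterial lipoproteins (chromosome 4, 153684070 to 153705702), had 0 counts in control 1 and 2. It stood at 16.2 CPM in control 3, at 18.7, 16.8 and 14.2 CPM in BD and at 19.1, 12.2 and 18.7 CPM in NBD, at least 72.8-fold higher than 3 counts in either control. TLR1, which pairs with TLR2, was at 0.409 and 0.668 CPM against 4.03 to 8.42 CPM. TLR4, which senses lipopolysaccharide, was at 0.971 and 1.17 CPM against 4.99 to 7.62 CPM, and TLR3, which senses double-stranded RNA, at 13.4 and 9.19 CPM against 32.2 to 52.6 CPM. Also lower were genes that NF-kB is known to induce as its own feedback. NFKBIA, its inhibitor, was at 52.6 and 51.5 CPM against 155 to 303 CPM, TNFAIP3 at 28.9 and 28.8 CPM against 101 to 199 CPM, NFKBIZ at 14.2 and 12 CPM against 80.1 to 144 CPM, and the apoptosis inhibitor BIRC3 at 29.8 and 20.2 CPM against 211 to 521 CPM. In the whole list of 24 Toll-like receptor and NF-kB genes 23 were tested, 9 were lower and 0 higher, with a median of -0.87. The other 14 did not separate.

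Chemokines were lower where they were separated. CCL2, which draws monocytes, was at 2.81 and 2.39 CPM in control 1 and 2, at 246 CPM in control 3, at 295, 340 and 255 CPM in BD and at 255, 312 and 367 CPM in NBD. The 7 libraries varied little among themselves, and their lowest was 87.4-fold above the pair. CXCL8, the main neutrophil attractant of human epithelium, was at 9.97 and 9.02 CPM against 112 to 301 CPM. CXCL3 was at 0.256 and 0.0557 CPM against 17.2 to 27.3 CPM, a gap of 67.2-fold, and CCL20 at 0.205 and 0.167 CPM against 3.34 to 12.2 CPM. Of 12 chemokines tested 7 were lower and 0 higher, with a median of -2.85 (-2.79 with low levels set to 3 counts). Among cytokines, IL6 was lower, at 2.86 and 2.90 CPM against 14.7 to 53.4 CPM, and so was CSF3, while the other 7 of 9 tested did not separate. The lower share was 22.2%, beside 5.73% over all tested genes, on too few members to be read as a result about cytokines.

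CXCL1, CXCL5 and CXCL3 adjoin among the tested genes of chromosome 4 and all 3 were lower, so their promoters are shown together with that of TRIM31, a ubiquitin ligase whose gap was the next widest after that of LCN2 among the genes named. Each window is the 250 bases before the gene's start, 5′ to 3′ on the gene's strand, from RefSeq in GRCh38.p14. Capitals mark a match to GGG, any 2 bases and TTTCC, a pattern like the known NF-kB element, or to its reverse complement. These genes were chosen after their values and matches were seen.
CXCL1 promoter, chr4:73869143-73869392, plus strand: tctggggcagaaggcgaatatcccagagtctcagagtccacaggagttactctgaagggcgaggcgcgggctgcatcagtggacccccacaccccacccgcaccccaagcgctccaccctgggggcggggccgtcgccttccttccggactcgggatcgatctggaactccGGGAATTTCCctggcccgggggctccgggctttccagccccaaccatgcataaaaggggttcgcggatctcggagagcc
CXCL5 promoter, chr4:73998678-73998927, minus strand: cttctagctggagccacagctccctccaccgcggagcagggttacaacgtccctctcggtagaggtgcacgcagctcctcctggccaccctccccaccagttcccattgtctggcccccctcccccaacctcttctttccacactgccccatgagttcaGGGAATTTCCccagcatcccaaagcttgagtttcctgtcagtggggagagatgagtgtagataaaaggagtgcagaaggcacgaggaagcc
CXCL3 promoter, chr4:74038690-74038939, minus strand: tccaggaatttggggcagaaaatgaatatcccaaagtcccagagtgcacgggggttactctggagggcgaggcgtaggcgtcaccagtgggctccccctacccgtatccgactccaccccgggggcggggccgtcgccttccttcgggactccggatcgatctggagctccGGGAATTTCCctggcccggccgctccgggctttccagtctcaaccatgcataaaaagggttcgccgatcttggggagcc
TRIM31 promoter, chr6:30113091-30113340, minus strand: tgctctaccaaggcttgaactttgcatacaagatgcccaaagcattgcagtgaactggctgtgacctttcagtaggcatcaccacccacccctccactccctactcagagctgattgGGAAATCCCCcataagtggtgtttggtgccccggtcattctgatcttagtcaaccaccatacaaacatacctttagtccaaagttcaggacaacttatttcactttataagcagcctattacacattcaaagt
All 3 chemokine windows hold the same 10 letters at the match, and the TRIM31 match is on the opposite strand. On either strand 473 of 27305 promoters of the same length in the table, 1.73%, hold the pattern. Other lower genes named here differed in it. The windows of LCN2, CXCL8, TLR2, TLR3, TLR4, PIGR, CFB and ATF3 lack the pattern, and those of BIRC3, CCL20, IL6, NFKBIA, NFKBIZ and TNFAIP3 hold it. A match is a description of the sequence, not a measured binding site. Levels at these genes were as follows. CXCL1 stood at 14.5 and 12.9 CPM in control 1 and 2 against 51.2 to 96.4 CPM, and CXCL5 at 0.102 and 0 CPM against 3.5 to 11.7 CPM. TRIM31 had 0 and 2 counts in control 1 and 2, against 43.4 to 113 CPM in the other 7, a ratio of summed rates of 1460 with a counting interval of 404 to 12000.

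The 24 genes with the widest gaps are shown in the plot of levels by library. They are the 12 per direction among the 123 higher and 335 lower protein-coding genes that reached 5 CPM in every library of their higher set.

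**Figure D2:**
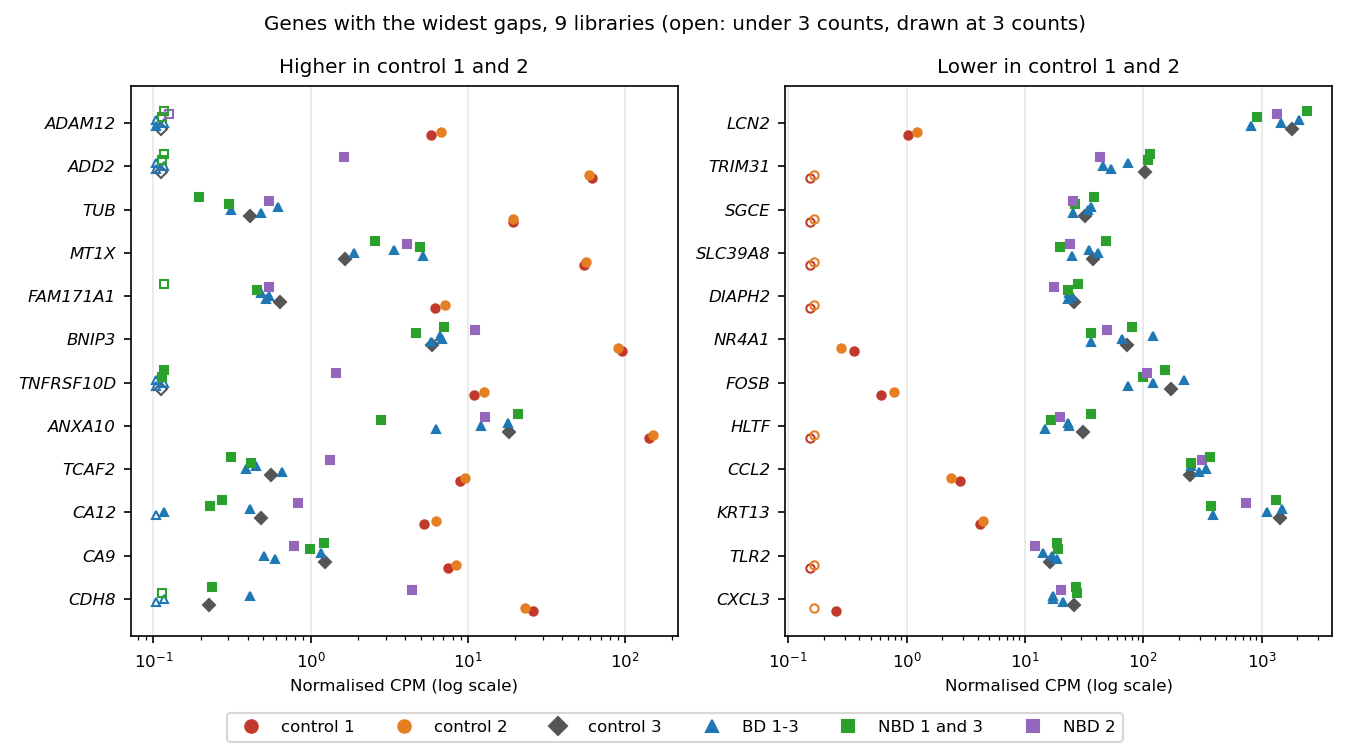
Each row is a gene and each point a library, with the TMM-scaled CPM on a log x axis and open symbols for levels under 3 counts, drawn at 3 counts. In all 24 genes the red and orange points of control 1 and 2 stand apart from the other 7 libraries, and control 3, grey, lies among BD and NBD. In ADD2, TNFRSF10D and CDH8 the purple point of NBD replicate 2 lies between the sets.

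Of 17 tested immediate-early genes, mostly transcription factors that serum and stress are known to induce within minutes, 10 were lower and 0 higher, with a median of -2.02. FOS was at 2.76 and 3.28 CPM in control 1 and 2, at 514 CPM in control 3, at 186, 383 and 587 CPM in BD and at 195, 339 and 468 CPM in NBD. FOSB was at 0.614 and 0.779 CPM against 74.5 to 222 CPM, and NR4A1, an orphan nuclear receptor, at 0.358 and 0.278 CPM against 36.1 to 120 CPM, gaps of 95.6-fold and 101-fold. ATF3 was at 7.82 and 7.91 CPM against 93.4 to 194 CPM, and DUSP1, a phosphatase that ends MAP kinase signals, at 4.04 and 3.23 CPM against 24.0 to 131 CPM. EGR1 was closer, at 17.5 and 18.3 CPM against 48.4 to 114 CPM.

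Of 34 interferon response genes tested 14 were lower and 0 higher. OAS1, which makes the signal that activates RNase L, was at 8.03 and 8.13 CPM against 59.0 to 99.1 CPM, and RSAD2, the antiviral enzyme viperin, at 19.4 and 14.8 CPM against 89.2 to 292 CPM. XAF1 was at 2.45 and 2.34 CPM against 20.1 to 53.8 CPM, and IFI44L at 0.205 and 0.334 CPM against 2.91 to 10.4 CPM. A log2 difference below 0 was seen in 33 of the 34, and the median was -1.35.

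MHC class II, by which cells present peptides to helper T cells, was lower in 8 of 8 tested members, with a median of -4.09 (-3.86 with low levels set to 3 counts). Of the 10 genes listed 7 held at most 3 counts in both controls, and these could pass the filter only through the other 7 libraries. Of all 1208 genes that passed so, 460 were called lower, so the filter had a part in the 8 of 8. CD74, the invariant chain that loads class II, had 1 and 0 counts in control 1 and 2, against 31.9 CPM in control 3, 13.9, 16.4 and 29.6 CPM in BD and 14.6, 10.1 and 25.5 CPM in NBD. Its ratio of summed rates was 768 with a counting interval of 138 to 30400. HLA-DRA had 0 and 1 counts against 4.20 to 18.5 CPM, a ratio of 365 (65.5 to 14400), and HLA-DPA1 had 0 counts in both against 1.21 to 7.79 CPM, at least 7.27-fold higher than 3 counts in either control. CIITA, the factor that switches on class II genes, was at 1.53 and 1.34 CPM against 5.89 to 25.5 CPM. Of MHC class I genes 3 of 15 tested were lower and 0 higher, all 15 had a difference below 0, and the median was -1.27. HLA-B was at 133 and 149 CPM against 322 to 672 CPM, and PSMB10, an immunoproteasome subunit, at 9.10 and 8.57 CPM against 25.9 to 42.2 CPM. HLA genes vary between copies and resemble each other, so their counts are uncertain where reads match several.

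Epidermal growth factor ligands, which keratinocytes make for themselves, went in both directions. EREG was at 8.79 and 9.19 CPM against 101 to 172 CPM, HBEGF at 11.2 and 11.4 CPM against 73.9 to 145 CPM and EPGN at 0.665 and 0.779 CPM against 6.83 to 13.4 CPM. TGFA was higher, at 122 and 130 CPM against 39.4 to 58.4 CPM. Of 12 members tested 5 were lower and 1 higher, with a median of -0.69.

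Keratins and alarmins differed by member. KRT13, a keratin of mucosal epithelium, was at 4.19 and 4.40 CPM in control 1 and 2, at 1420 CPM in control 3, at 388, 1110 and 1470 CPM in BD and at 376, 736 and 1320 CPM in NBD, a gap of 85.6-fold. KRT15, a basal keratin also found in the hair follicle bulge, was at 27.1 CPM in both against 286 to 444 CPM. KRT5 was not separated, at 1010 and 1230 CPM against 320 to 718 CPM, and KRT14 overlapped, at 321 and 384 CPM against 142 to 439 CPM. KRT6A, a wound keratin with near-identical copies, was higher, at 500 and 626 CPM against 89.0 to 246 CPM. The alarmins S100A8 and S100A9 were lower, S100A9 at 0.614 and 0.835 CPM against 3.26 to 32.8 CPM. The protease inhibitors SERPINB3 and SERPINB4, close copies of each other, were lower as well, at 3.43 and 4.95 CPM against 58.1 to 342 CPM and at 6.14 and 4.84 CPM against 50.2 to 298 CPM. Of 9 stress keratins and alarmins tested 5 were lower and 1 higher, with a median of -2.72.

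Of 20 late differentiation genes listed 6 passed the filter. KLF4, a barrier transcription factor, was the 1 that separated, lower at 14.7 and 14.1 CPM against 64.7 to 156 CPM. The list did not go with it, since 4 of the 6 had a log2 difference above 0 and 2 below. Its median was 0.82, and 0.20 without control replicate 1. IVL, a cornified envelope protein, was at 1.07 and 1.17 CPM against 0 to 0.581 CPM and did not reach the 2-fold gap. It reached it with plain library totals, without NBD replicate 2 and without control replicate 1.

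Hypoxia and glycolysis genes were the largest group in the other direction. BNIP3, a mitophagy receptor (chromosome 10, 131966455 to 131982013), was at 95.5 and 90.7 CPM in control 1 and 2, at 5.95 CPM in control 3, at 5.86, 6.84 and 6.69 CPM in BD and at 4.67, 11.1 and 7.05 CPM in NBD. The pair was 8.18-fold above NBD replicate 2, the highest of the 7. NDRG1 was at 183 and 163 CPM against 7.97 to 33.0 CPM, and LDHA, which turns pyruvate into lactate, at 2130 and 2170 CPM against 455 to 727 CPM. The carbonic anhydrases CA9 and CA12, which set the pH at the cell surface, were at 7.46 and 8.35 CPM against 0.505 to 1.23 CPM and at 5.27 and 6.29 CPM against 0.0347 to 0.830 CPM. SLC2A3, a glucose transporter, was at 7.06 and 5.79 CPM against 0.0374 to 1.33 CPM, HK2 at 93.0 and 89.1 CPM against 17.1 to 33.4 CPM, and PDK1 at 70.6 and 57.8 CPM against 17.0 to 27.5 CPM. The oxygen sensor EGLN3 was at 8.95 and 8.96 CPM against 1.09 to 2.09 CPM. Other well-known targets did not go with them, since VEGFA was at 63.5 and 65.8 CPM against 75.8 to 125 CPM, ADM at 22.2 CPM in both against 25 to 36.1 CPM, and SLC2A1 and ENO1 overlapped. Of 26 tested 10 were higher and 0 lower, and the median was 1.07. The hypoxia-inducible factors are known to bind elements with the core ACGTG, and the promoters of CA9 and BNIP3 are shown because both genes are among the 24 with the widest gaps and hold it. ADAM12 and MT1X, also higher, and TLR2 and DIAPH2, which were lower, hold it too, and CA12 does not. Capitals mark ACGTG on either strand, and the windows are as above.
CA9 promoter, chr9:35673678-35673927, plus strand: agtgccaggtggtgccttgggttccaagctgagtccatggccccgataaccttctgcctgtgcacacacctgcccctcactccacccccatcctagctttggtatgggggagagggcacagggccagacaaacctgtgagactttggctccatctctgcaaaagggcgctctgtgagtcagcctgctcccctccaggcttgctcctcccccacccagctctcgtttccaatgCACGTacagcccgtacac
BNIP3 promoter, chr10:131981924-131982173, minus strand: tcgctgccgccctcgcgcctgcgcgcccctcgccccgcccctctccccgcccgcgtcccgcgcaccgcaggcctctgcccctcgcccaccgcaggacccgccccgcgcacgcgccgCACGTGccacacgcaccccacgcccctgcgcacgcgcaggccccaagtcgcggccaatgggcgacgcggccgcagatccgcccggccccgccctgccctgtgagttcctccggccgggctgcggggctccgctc
In BNIP3 the matches on the 2 strands overlap. The core is in 5101 of the 27305 promoters, 18.7%, and in 23.5% of those of tested protein-coding genes, so a match by itself is common.

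Metallothioneins, small proteins that bind zinc and copper, were higher where separated. MT1X was at 54.6 and 56.5 CPM in control 1 and 2, at 1.65 CPM in control 3, at 5.20, 1.90 and 3.4 CPM in BD and at 4.97, 4.11 and 2.57 CPM in NBD. MT1E was at 116 and 125 CPM against 15.4 to 51.6 CPM. MT2A, at 112 and 115 CPM against 21.8 to 57.4 CPM, missed the 2-fold gap, and MT1F was below 0 at -0.94. Of 4 tested 2 were higher, and these genes resemble each other. SLC39A8, a zinc importer, was among the lowest, with 2 and 0 counts in control 1 and 2 against 19.7 to 48.4 CPM, a ratio of summed rates of 618 (171 to 5100).

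Several other higher genes were at or near 0 in most of the other libraries. ADD2, beta-adducin, which caps actin filaments and is best known from red cells and brain (chromosome 2, 70607618 to 70768225), was at 61.3 and 58.6 CPM in control 1 and 2. It had 0 counts in control 3, in all 3 BD libraries and in NBD replicates 1 and 3, and 39 counts (1.62 CPM) in NBD replicate 2. ADAM12, a membrane-bound metalloprotease, was at 5.83 and 6.79 CPM, with at most 3 counts in each of the other 7, a ratio of summed rates of 147 with a counting interval of 73.2 to 344. TUB, the tubby protein, was at 19.3 and 19.5 CPM against 0.195 to 0.618 CPM. CDH8, a cadherin of neurons, was at 26.1 and 23.0 CPM against 0.0347 to 4.40 CPM, and ANXA10 at 142 and 150 CPM against 2.81 to 20.9 CPM. TNFRSF10D, a decoy receptor for the death ligand TRAIL, was at 10.9 and 12.7 CPM against 0 to 1.45 CPM. The list of neural-type genes was not uniform. NEFL, a neurofilament, and ENO2 were higher with ADD2, while SYT1, SYP and NRCAM were lower, so that 3 of 11 tested were separated in each direction.

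Matrix and mesenchymal genes were mixed as well. FN1, fibronectin, was at 3070 and 3200 CPM in control 1 and 2, at 359 CPM in control 3, at 901, 440 and 476 CPM in BD and at 1040, 612 and 237 CPM in NBD. SPARC, a matrix glycoprotein, was at 29.3 and 29.2 CPM, at 14.3 CPM in NBD replicate 2 and at 0.466 to 1.49 CPM in the other 6. The transcription factors TWIST1, at 0.665 and 0.612 CPM against 3.98 to 11.2 CPM, ZEB1 and ZEB2 were lower. VIM, vimentin, was at 0.920 and 0.501 CPM, at 5.56 CPM in NBD replicate 2 and at 0.0779 to 0.867 CPM in the other 6. Of 22 tested 2 were higher (9.09%) and 3 lower (13.6%), beside 1.78% and 5.73% over all tested genes. Such small counts are not read as a result about the list. Its median was -0.20 (-0.11 without BD replicate 3 and -0.12 without BD replicate 2).

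WNT and Notch genes also split by member. WNT4, a WNT ligand, was at 0.869 and 0.835 CPM against 27.3 to 60.2 CPM, and WNT10A at 12 and 15.7 CPM against 63.9 to 113 CPM. DKK1, a secreted WNT inhibitor, was higher at 69.9 and 84.2 CPM against 6.47 to 31.2 CPM. Of the Notch targets, HEY1 was higher, at 2.40 and 4.12 CPM against 0.114 to 0.996 CPM, and HES1 lower, at 22.3 and 24.9 CPM against 57.6 to 156 CPM. Of 20 tested 2 were higher and 3 lower.

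Of the antioxidant enzymes, the aldo-keto reductases AKR1C2 and AKR1C3, close together on chromosome 10, were lower. AKR1C2 was at 11.8 and 11.9 CPM against 83.2 to 199 CPM and AKR1C3 at 3.17 and 4.68 CPM against 20 to 51.9 CPM, and their sequences are close. ALDH3A1, an aldehyde dehydrogenase, was at 0.665 and 1.67 CPM against 18.5 to 49.2 CPM. These were the 3 lower genes of 17 tested (17.6%, beside 5.73% over all tested genes), with 0 higher. So small a count is not read as a result about the list.

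Among imprinted genes, those expressed from 1 parental copy, SGCE and PEG10 adjoin on chromosome 7 and were both lower. SGCE, epsilon-sarcoglycan (94524204 to 94656572), had 2 counts in each of control 1 and 2 against 25.3 to 38.7 CPM, a ratio of summed rates of 293 (114 to 1080). PEG10, derived from a retrotransposon (94656325 to 94669695), was at 0.409 and 0.501 CPM against 26.5 to 39.8 CPM. Their annotated ends overlap, so reads there are uncertain. PLAGL1, an imprinted zinc finger gene, had 1 and 0 counts against 1.58 to 4.93 CPM. The other 7 of 10 tested did not separate. HLTF, a chromatin remodeller of the SWI/SNF type, had 0 and 1 counts against 14.7 to 36.2 CPM, and DIAPH2, a formin that builds actin filaments, 0 and 1 counts against 17.6 to 28.1 CPM. Their ratios of summed rates were 879 (158 to 34700) and 894 (160 to 35300). The 15 DNA methylation enzymes and readers were all tested and 0 separated, beside 7.52% over all tested genes, so this count is not read as a result about the list.

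Growth, housekeeping and position lists held 0 to 2 separated genes each. Over all tested genes 7.52% separated, so these counts are not read as a result about the lists. Of 26 G2 and mitosis genes and 25 S phase genes 0 separated, with medians of 0.32 and 0.24. MKI67 overlapped, at 592 and 483 CPM against 135 to 648 CPM. Of 19 p53 targets and cell cycle inhibitors 1 was lower, TP53I3, and CDKN1A overlapped, at 15.1 and 15.5 CPM against 9.87 to 37.9 CPM. Of 21 cholesterol and fatty acid synthesis genes 0 separated, and of 19 junction genes 1 was lower, CLDN1, the claudin of the epidermal barrier, at 182 and 180 CPM against 387 to 628 CPM. TP53I3 and CLDN1 lost the 2-fold gap when plain library totals were used for scaling. ITGA6, a basal integrin, missed the 2-fold gap at 770 and 738 CPM against 296 to 447 CPM, while ITGB1 overlapped. CDH1, E-cadherin, was at 261 and 257 CPM against 147 to 244 CPM, and TFRC, the transferrin receptor, at 655 and 724 CPM against 318 to 581 CPM. Of 14 basal keratinocyte and anchoring genes KRT15 was the 1 that separated, and of 5 simple epithelial keratins 0 did. Of 24 HOX genes tested, which record body position, HOXA2 was lower at 2.15 and 2.73 CPM against 8.47 to 11.8 CPM, and HOXA9 was lower except with plain library totals. Of 13 mRNAs of the mitochondrial genome MT-CO3, a subunit of cytochrome c oxidase, was lower at 774 and 836 CPM against 2050 to 4010 CPM, with a list median of -0.38 (-0.12 without NBD replicate 2 to -0.57 without BD replicate 2), beside the lower share of mitochondrial rRNA given above. Of 31 cancer-testis genes TEX15 was the 1 that passed the filter, at 0 counts in control 1 and 2 against 1.25 to 4.13 CPM. The plot of gene lists sets these groups side by side. The lists were written with earlier results of these data known, so their directions are not independent evidence.

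**Figure D3:**
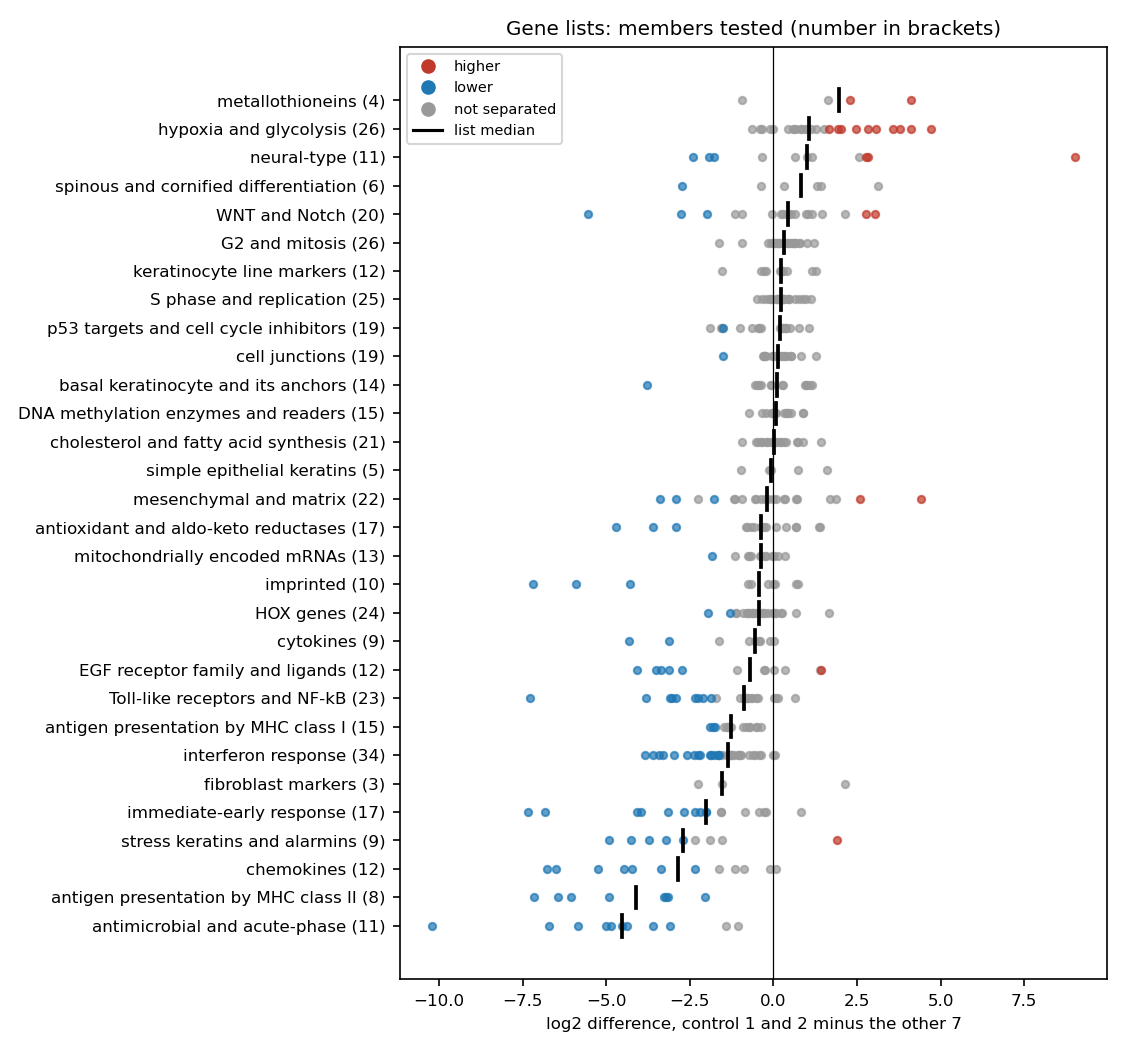
Each point is a tested member of a gene list, placed by its log2 difference, control 1 and 2 minus the other 7, with higher genes red, lower genes blue and genes not separated grey. Black bars are list medians, which run from 1.96 for metallothioneins to -4.53 for antimicrobial and acute-phase genes, and the number of members tested stands in brackets.

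Some separated genes lay side by side. Adjoining tested genes that were both lower formed 91 runs of 2 or more, and adjoining higher genes 13, and 18 runs of lower genes but 0 of higher genes reached 3. The runs held HLA-DRA, HLA-DRB5, HLA-DRB1 and HLA-DQB1 on chromosome 6 (32439842 to 32668383), SAA4 to SAA1 on chromosome 11 (18231349 to 18269977), PDGFD, CASP4, CASP1 and CARD16 on the same chromosome (103907186 to 105101431), and the guanylate-binding proteins GBP2, GBP4 and GBP5 on chromosome 1 (89106132 to 89272804). Many of these are families of near copies that lie together, and the number of runs to be expected by chance was not computed.

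Whole chromosomes differed by less than single genes. The median log2 difference over the 519 tested genes of chromosome 10 was 0.49, and 74.0% of them were above 0. Chromosome 15 had a median of -0.35 over 476 genes and chromosome 17 one of -0.27 over 826. Medians were then taken in windows of 10 Mb with at least 20 tested genes, and stretches of 3 or more adjoining windows past 0.4 were kept, a choice made after the values were seen. Of 250 windows 17 were above 0.4 and 15 below -0.4.

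On chromosome 10 a stretch from 60 to 130 Mb held 334 tested genes with a median of 0.64, which is 1.56-fold, and 82.6% of them were above 0. Each library was set against the mean of the other 7, without itself where it is 1 of them. So measured, the stretch stood at 0.68 in control 1 and 0.64 in control 2, at 0.32 in NBD replicate 2 and at -0.12 to 0.05 in the other 6. The other 185 genes of the chromosome had a median of 0.10. On chromosome 11 the 94 genes from 80 to 110 Mb, BIRC3 and the caspases CASP1 and CASP4 among them, had a median of -0.75, or 0.597-fold, and 87.2% were below 0. That stretch stood at -0.72 and -0.81 in control 1 and 2 and at -0.17 to 0.29 in the other 7. On chromosome 17 the 217 genes from 60 to 90 Mb had a median of -0.62, or 0.649-fold, with 88.9% below 0, at -0.72 and -0.55 in control 1 and 2 and at -0.15 to 0.09 in the other 7. In each stretch control 1 and 2 lay outside the range of the other 7. Copy number was not measured, and its part in these medians was not tested.

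**Figure D4:**
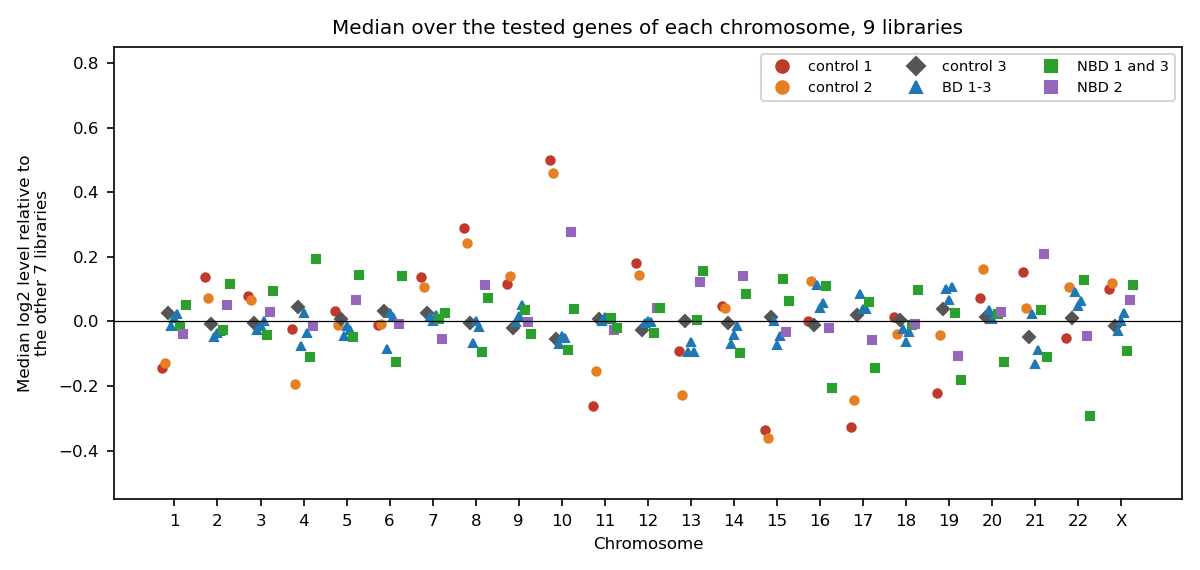
Each point is the median, over the tested genes of a chromosome (1 to 22 and X, x axis), of a library's relative log2 level (y axis), with 1 point per library. Levels are relative to the mean of the 7 libraries other than control 1 and 2, without the library itself where it is 1 of these. Control 1 and 2 stand highest on chromosome 10, at 0.50 and 0.46, with NBD replicate 2 at 0.28, and lowest of these chromosomes on chromosome 15.

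By the levels and shares of genes given below, NBD replicate 2 was the library nearest to control 1 and 2. Among the 258 higher genes it was the highest of the 7 in 145 (56.2%), and over all tested genes in 15.3%. Among the 829 lower genes it was the lowest of the 7 in 339 (40.9%), and over all tested genes in 12.8%. Its level in the higher genes lay 12.5% of the way from the median of the other 6 libraries to the mean of control 1 and 2 (median over genes, quartiles 2.83% and 22.8%), while for each of the remaining libraries the same measure lay between -1.29% and 0.0151%. The share of genes over 2-fold from control 1 or 2 was 16.3% and 17.0% for NBD replicate 2, and 21.5% to 27.4% for the other 6. By chi-square per gene NBD replicate 2 was not the nearest, at 189 and 192 from control 1 and 2. BD replicate 1 stood at 178 and 185, and BD replicate 2 at 191 and 169. The shares were counted after the pattern was seen. The separated genes were picked with the levels of all 7 libraries, NBD replicate 2 included. The 56.2%, 40.9% and 12.5% are thus not independent of that rule. Leaving NBD replicate 2 out of it gave 467 higher and 915 lower genes.

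**Figure D5:**
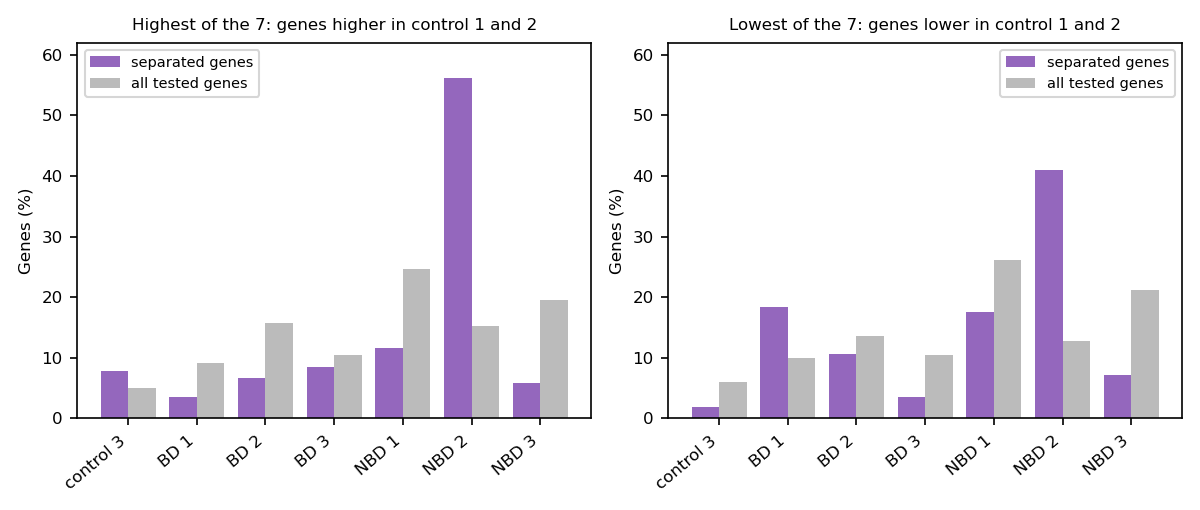
Bars give, for each of the 7 libraries, the percentage of genes in which it was the highest (left, genes higher in control 1 and 2) or the lowest (right, genes lower in them), with separated genes in purple and all tested genes in grey. NBD replicate 2 stands at 56.2% and 40.9%, against 15.3% and 12.8% over all tested genes.

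The level in NBD replicate 2 was then read in genes that the remaining 6 libraries hardly express. At 5 CPM or more in both controls and at most 3 counts in each of the 6 there were 3 genes. ADD2, with 39 counts in NBD replicate 2, stood there at 2.7% of its mean in control 1 and 2 (95% counting interval 1.92% to 3.69%). TNFRSF10D, with 35 counts, stood at 12.3% (8.56% to 17.1%), and ADAM12, with 2 counts, at 1.32% (0.159% to 4.75%). The intervals cover counting error only.

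The labelled subpopulations gave the only comparison that was tested, and neither group holds a control library. The separated genes, though, were picked with levels that include those of the BD and NBD libraries. That rule favours genes with little spread among these libraries, so the share of separated genes called is not independent of the choice. In BD against NBD, 6 libraries without a control, the quasi-likelihood test of edgeR, with p adjusted by Benjamini-Hochberg, called 5 of 16151 genes (0.0310%), and 1390 (8.61%) had an unadjusted p under 0.05. The called genes were the small nucleolar RNAs SNORD3A and SNORD17 and the mitochondrial mRNAs MT-ATP6, MT-ND4 and MT-CYB, all lower in BD and none of them separated. Of the 1087 separated genes 1005 were tested, 0 were called by edgeR and 6 by DESeq2, and 40 (3.98%) reached an unadjusted p under 0.05 in edgeR. In simulated counts the edgeR test recovered 3% of 1.5-fold, 23.9% of 2-fold and 97% of 4-fold changes. The changes were placed only in genes with a log2 mean CPM above 2, so recovery at lower levels was not measured. Most differences of 2-fold or less can thus be missed, and the 0 does not show that they are absent. The 176 higher genes tested had a median log2 fold change, BD minus NBD, of -0.22, with 6 lower and 0 higher at an unadjusted p under 0.05. The 829 lower genes had a median of 0.06, with 25 higher and 9 lower, and the median over all genes was -0.02. NBD holds replicate 2, the library nearest to control 1 and 2 by levels and shares of genes, and the part of that library in these medians was not tested.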

How the data were processed

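The authors deposited read counts per Ensembl gene ID, 1 table for each of 9 libraries, with no normalization. Libraries were stranded, rRNA-depleted and paired-end, and RNA came from 2 micro-scale kits, per the labels' protocols; the kit used for each library is not stated. Per the submitters' processing notes the tools were FastQC 0.74, Trimmomatic 0.39, STAR 2.7.11b and featureCounts, on GRCh38. How strand and multi-matching reads were counted, and on which annotation release, was not given in the sources used here, so overlapping, antisense and near-identical genes have uncertain counts. Each table lists 78899 IDs, of which 39344 had a count. Symbols were found for 61512 IDs, holding 99.84% of counts, and GENCODE 29 gave type and position for 57338.

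Control 1 and 2 were set beside the other 7 libraries without a test. Levels are TMM-scaled CPM, and log2 differences used a prior count of 2. BD against NBD was tested with edgeR 4.0.16 in R 4.3.3 (quasi-likelihood, filterByExpr, two-sided, Benjamini-Hochberg, called at adjusted p under 0.05), and the test was tried on simulated data. Ratios for genes with at most 3 counts per library of the lower set used counts summed over libraries, with exact 95% intervals. These leave out the spread between libraries. Genes named are the 12 widest gaps per direction, up to 4 separated members per list, 13 fixed genes, and further list members, other separated genes and near copies named after their values were seen. The members and the 34 lists were chosen with earlier results of these data known. Promoters came from RefSeq, and 20 of the 24 genes with the widest gaps had a window. Alternatives were other scaling, filters, gaps, DESeq2 1.42.0, a replicate block, other libraries in the fit and leaving out each library.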

Additional observations from a re-analysis of the deposited data

How the results depend on the processing

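Counts of separated genes depended on the filter, the gap and the scaling. With a filter of 5 CPM they were 137 higher and 473 lower, with a 4-fold gap 51 and 322, and with any gap 2954 and 3286. Scaling by plain library totals gave 337 higher and 700 lower genes, and DESeq2 size factors 264 and 815, against 258 and 829 in the main setting. Leaving out 1 library at a time gave 217 to 467 higher genes, the highest without NBD replicate 2, and 825 to 1085 lower genes, the highest without control replicate 1. Plain library totals moved the median log2 difference of all genes by 0.118, and list and chromosome medians were compared relative to that shift, a choice made after seeing the data. Taken this way the medians of lists and chromosomes can hardly move with the scaling, by construction.

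Leaving out 1 library moved some medians by more than that spread. The ranges were 0.202 to 0.884 for spinous differentiation, -3.322 to -2.362 for chemokines, -1.385 to -0.964 for MHC class I, -0.486 to -0.276 for antioxidant enzymes, -0.801 to -0.271 for imprinted genes, 0.067 to 0.230 for p53 targets, -1.757 to -0.029 for the 3 fibroblast markers tested and -0.260 to -0.172 for chromosome 11. None of these changed sign, while the medians of simple epithelial keratins (-0.222 to 0.105) and of cholesterol and fatty acid synthesis genes (-0.043 to 0.128) did. The spinous median fell to 0.202 without control replicate 1, the p53 median to 0.067 without control replicate 1, and the fibroblast median to -0.029 without control replicate 3 and -0.150 without NBD replicate 3.

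Calls between BD and NBD were unstable. DESeq2 called 83 genes, no filter gave 218, all 9 libraries 3, and 7 libraries with control replicate 3 as a group of 1, its spread taken from the other groups, 9. Leaving out 1 replicate gave 0 to 14, with 0 without any of the 3 BD replicates or NBD replicate 2, 9 without NBD replicate 1 and 14 without NBD replicate 3. With the replicate block 164 were called. Of the separated genes DESeq2 called 6, no filter 18 and the replicate block 6, and 0 were called in the other fits. Same-numbered BD and NBD replicates correlated at 0.642, 0.08 and 0.344, and those with different numbers at -0.594 to 0.449. The numbers were not taken as pairs in the main fit, and whether they are pairs remains undecided. Control 1 and 2 are the shallowest libraries, and below 0.167 CPM their levels rest on under 3 counts.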
